A study of Mus musculus with 6 samples.

Results

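The genes described here encode proteins of the Z-disc and the M-band of the sarcomere, the titin filament that joins them and a titin-binding protein of the A-band. They are Ttn, Myom1, Myom2, Mybpc3 (the A-band protein), Nebl, Ldb3, Tcap, Myoz2 and Csrp3. They were chosen by name, and every noncontrol probe whose annotated gene name was one of these 9 was taken. The array held 24 such probes, of which 23 passed the detection filter, and all 9 genes were among the 16952 genes tested of 28786 gene names on the array. The samples were hearts of male C57BL/6 mice. One group had been adrenalectomized at 1 month of age and the other sham-operated, and hearts were taken 6 months after surgery, with 3 arrays in each group. The labels also call the mice 6 months old, which differs from the age these times add up to. Adrenalectomy removes the source of circulating glucocorticoids and mineralocorticoids, and the labels name no hormone replacement and no other treatment. The comparison asks how gene expression in the heart differs after long-term loss of the adrenal glands.

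The Z-disc anchors the thin filaments of neighbouring sarcomeres and the M-band cross-links the thick filaments at the sarcomere's centre. Titin, the product of Ttn, spans from one to the other and acts as a molecular spring, and its transcript is among the longest known and is extensively spliced, with shorter forms in heart than in skeletal muscle. Several Z-disc proteins also take part in signalling in response to stretch, and mutations in many of these genes cause cardiomyopathy.

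No gene of the group passed the test in these 6 hearts, but the probes of a single gene did not read the same difference. Of the 23 probes, 20 had a lower mean in adrenalectomized hearts, with a median log2 difference of -0.35 against 0.03 over all 23993 tested probes. Under an alternative background correction, normexp, which moved the median of all probes to -0.18, 12 of the 23 were lower and their median was -0.47, and 18 to 21 were lower under the other alternatives run on single probes. Titin held the widest range: all 9 of its probes had a lower mean after adrenalectomy, with differences between -0.00063 and -1.27, though 2 of the 9 turned positive under normexp background correction. Ldb3, Nebl and Myoz2 each had 1 probe about 0.8 to 1.1 log2 units lower and another within 0.12 of no difference.

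The probes were oligonucleotides of 60 bases. Of the 7 titin probes with the lower readings, 6 are shown because probes along titin read different changes. The seventh, A_51_P521106, is not printed because its mapped span of 43 bases is shorter than the probe and its place in the transcript was not settled. The 6 below read an open frame, lie in the titin gene on the minus strand of chromosome 2 (mm7, the build named by the arrays' design), and are given from the 5′ to the 3′ end of the gene, with no base singled out by capitals.
Ttn A_52_P524700 (chr2:76808824-76808883, minus strand): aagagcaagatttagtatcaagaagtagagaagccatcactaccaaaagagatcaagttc
Ttn A_51_P401792 (chr2:76789186-76789245, minus strand): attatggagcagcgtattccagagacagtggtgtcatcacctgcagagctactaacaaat
Ttn A_52_P569906 (chr2:76707146-76707205, minus strand): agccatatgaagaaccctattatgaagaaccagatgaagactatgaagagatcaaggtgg
Ttn A_52_P659477 (chr2:76695434-76695785, minus strand): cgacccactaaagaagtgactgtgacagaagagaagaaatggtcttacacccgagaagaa
Ttn A_51_P191400 (chr2:76585862-76585921, minus strand): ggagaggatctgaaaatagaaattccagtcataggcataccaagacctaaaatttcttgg
Ttn A_52_P454295 (chr2:76557401-76557460, minus strand): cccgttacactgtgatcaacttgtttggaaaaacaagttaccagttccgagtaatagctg
Probe A_52_P659477 is mapped over a genomic span of 352 bases, longer than the probe. No exon annotation of this build was used here, so each probe is placed by coordinates and by the transcript record that the array names for it.

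Levels below are log2 signals relative to the 75th percentile of each array, and differences are adrenalectomized minus sham on the same scale. Titin probe A_52_P569906 had levels of -0.74, -0.43 and -0.0064 in adrenalectomized hearts and 0.80, 1.17 and 0.41 in sham hearts. Every adrenalectomized heart lay below every sham heart. The difference was -1.19 ± 0.25 (SE, n = 3 each), a 2.28-fold lower signal (limma, Benjamini-Hochberg adjusted p = 0.163, unadjusted p = 0.00194). Probe A_52_P454295, near the 3′ end of the gene, had 1.23, 1.97 and 2.46 in adrenalectomized hearts and 3.19, 3.64 and 2.66 in sham hearts. These groups did not overlap either, and the difference of -1.27 ± 0.35 (SE) was the lowest among the member probes (limma adjusted p = 0.225). Probe A_51_P521106 was the most 3′ of the 9 by its mapped coordinates. It had 0.019, 0.33 and 0.99 in adrenalectomized hearts and 1.61, 2.04 and 1.19 in sham hearts. It was the third titin probe without overlap, at -1.17 ± 0.30 (SE, limma adjusted p = 0.205). Against these 3 of 9, the share of all tested probes that lay lower without overlap was 9.39%, and 10.2% lay higher without overlap.

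The other titin probes showed the same lower mean with overlap between the groups. Probe A_51_P401792, in the 5′ part of the gene, had 4.17, 4.62 and 5.47 in adrenalectomized hearts and 5.92, 6.15 and 5.42 in sham hearts. Only adrenalectomized replicate 3 and sham replicate 3 crossed, and the difference was -1.08 ± 0.34 (SE, limma adjusted p = 0.261). The most 5′ probe, A_52_P524700, had 2.01, 2.71 and 3.23 in adrenalectomized hearts and 3.42, 3.98 and 3.02 in sham hearts, a difference of -0.83 ± 0.35 (SE, limma adjusted p = 0.371). Probes A_52_P659477 and A_51_P191400 read -0.67 ± 0.22 and -0.60 ± 0.25 (SE, limma adjusted p = 0.270 and 0.357). In all 7 of these lower titin probes, adrenalectomized replicate 3 was the highest of its group, sham replicate 2 the highest and sham replicate 3 the lowest of theirs. Adrenalectomized replicate 1 was the lowest of its group in 6 of the 7.

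A pair of titin probes stood apart from the other 7. Probe A_51_P148509, named for the N2-A titin record (chr2:76548207-76548266, minus strand), had levels of 5.38, 5.22 and 5.51 in adrenalectomized hearts and 5.31, 5.36 and 5.45 in sham hearts. The groups lay on top of each other, with a difference of -0.00063 ± 0.12 (SE, limma adjusted p = 0.999 over probes). None of its 3 forward reading frames was open over the whole probe. The 7 lower titin probes are named for the same N2-A record, so that name does not separate them from A_51_P148509. Probe A_51_P219312, named for a tongue cDNA clone described as similar to the short novex-3 titin isoform (chr2:76757814-76757873, minus strand), had 3.93, 3.74 and 4.13 in adrenalectomized hearts and 4.12, 4.14 and 3.996 in sham hearts. Its difference was -0.15 ± 0.13 (SE, limma adjusted p = 0.653). Titin is represented by A_51_P148509 in the gene-level fit because that probe had the highest mean signal, so the gene-level difference of titin is the one near 0.

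**Figure D1:**
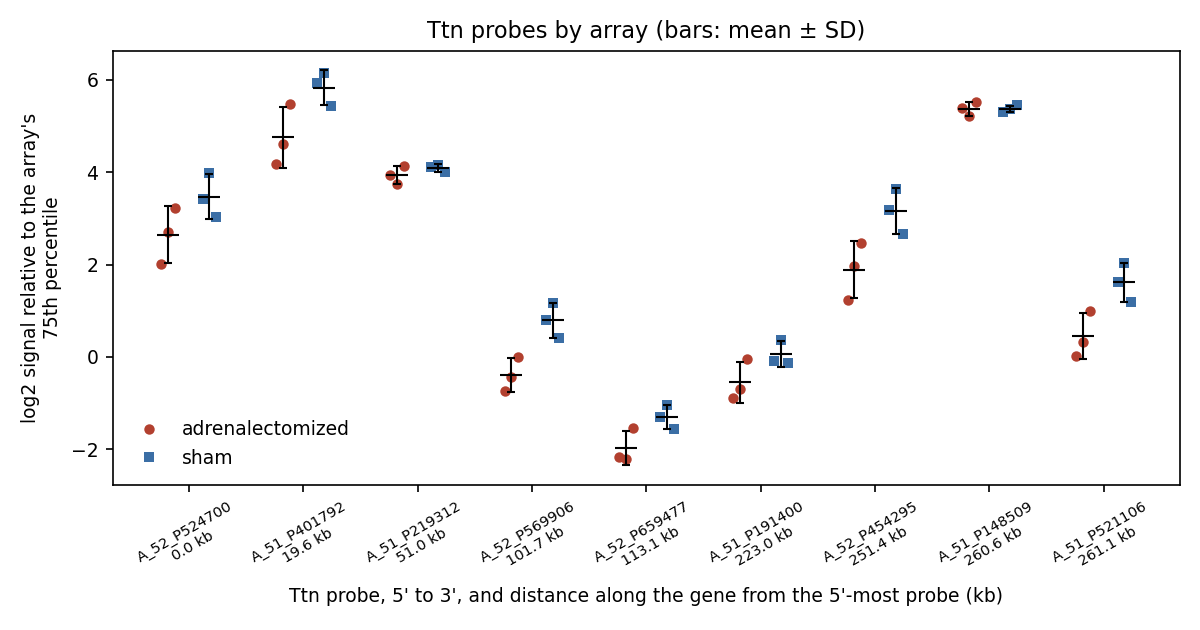
Level of the 9 titin probes on each array (log2 signal relative to the array's 75th percentile), in order from the 5′ to the 3′ end of the gene with the genomic distance from the most 5′ probe in kb. Circles are the 3 adrenalectomized and squares the 3 sham hearts, and bars give mean ± SD. The groups coincide at A_51_P148509 and nearly so at A_51_P219312, and the adrenalectomized mean is 0.60 to 1.27 lower at the other 7. Levels of different probes are not comparable with each other.

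In the plot of titin probes along the gene, A_51_P148509 read -0.00063 and the probe mapped most 3′, A_51_P521106, read -1.17. By mapped coordinates they lie 260.6 and 261.1 kb from the most 5′ probe. The novex-3 clone probe, at 51.0 kb, lies between A_51_P401792 at 19.6 kb and A_52_P569906 at 101.7 kb, which read -1.08 and -1.19. The GC content was 40.0% for A_51_P148509, 45.0% for A_51_P219312 and 36.7% to 45.0% for the other 7.

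A gap between 2 probes of a gene on the same array does not depend on how arrays were scaled against each other. Relative to A_51_P148509, titin probe A_52_P454295 lay at -4.15, -3.25 and -3.05 log2 units in adrenalectomized hearts and at -2.12, -1.72 and -2.79 in sham hearts. The gap was 1.27 log2 units wider after adrenalectomy, without overlap. For A_52_P569906 the gap was -6.13, -5.65 and -5.52 in adrenalectomized hearts and -4.51, -4.19 and -5.04 in sham hearts, again without overlap. All 8 titin probes had a lower mean gap to A_51_P148509 in adrenalectomized hearts, and 5 of the 8 had groups that did not overlap. Because A_51_P148509 itself read -0.00063, each change of the mean gap nearly equals that probe's own difference. The shared direction of the 8 gaps therefore restates the probe differences and is no separate result. Each of those 5 had an exact two-sided permutation p of 0.1, the smallest that 3 against 3 allows, and an adjusted p of 0.200 over the 44 probe pairs of the members, so none could pass the threshold.

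Over all 44 pairs, drawn from the 5 member genes with several tested probes, 23 had non-overlapping gaps: 19 of the 36 titin pairs and 4 of the 8 pairs of the other genes. These pairs share probes and are not independent. Over the 8272 pairs of all 4905 genes with several probes, 23.3% had non-overlapping gaps in either direction. The median absolute change of the gap was 0.51 for the members and 0.17 over all genes, where 90% of pairs stayed within 0.58. Among the 45 genes with at least 5 tested probes, the range of the titin probes, 1.27 log2 units, was the fifth widest, with a median of 0.76 over the 45 genes, and Golgb1, at 1.51, was the widest. Titin had 9 probes and the other 44 genes 5 or 6, and a range tends to widen with the number of probes.

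Lower readings from the 5′ probe were also present among distant probe pairs of other genes. In 2247 pairs of probes that the array names for the same transcript record and that lie 1 to 10 kb apart, the 5′ probe changed relative to the 3′ probe by a median of -0.0013 (adrenalectomized minus sham). In 1017 pairs lying 10 to 100 kb apart the median was -0.15, with 65.1% of pairs below 0 and 19.3% at -0.6 or lower. In 65 pairs of 49 genes lying over 100 kb apart the median was -0.17, with 69.2% below 0 and 23.1% at -0.6 or lower. Over these most distant pairs the array medians were -0.17, -0.11 and -0.15 in adrenalectomized hearts and 0.044, 0.17 and -0.22 in sham hearts, so sham replicate 3 lay below all adrenalectomized hearts. Of the 8 titin gaps to A_51_P148509, 7 belong to probes on its 5′ side. The eighth belongs to A_51_P521106, which is mapped to its 3′ side but whose place in the transcript was not settled. The part of these positional differences in the titin result was not tested.

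**Figure D2:**
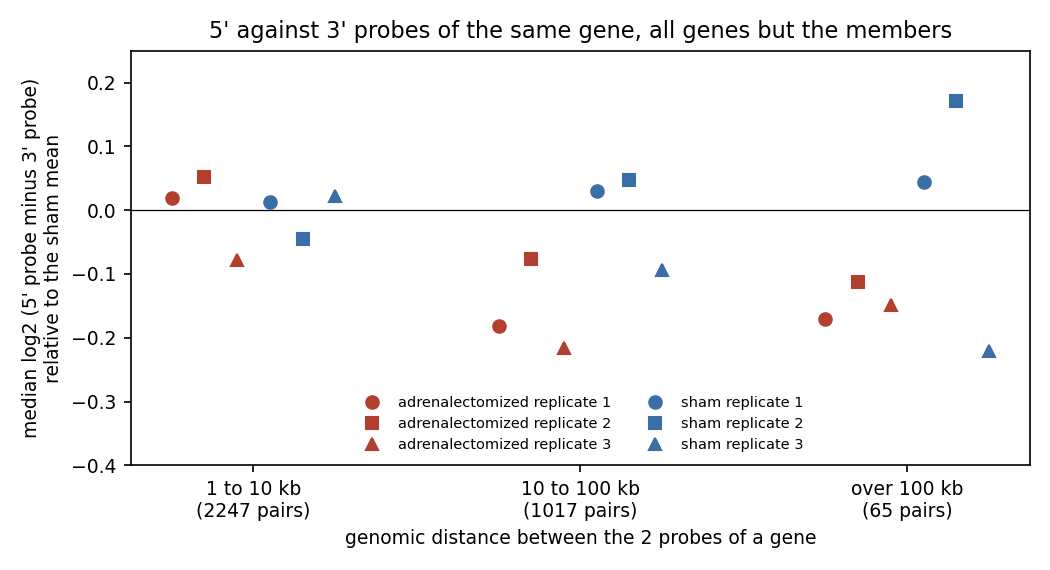
Median log2 signal of the 5′ probe minus the 3′ probe of the same transcript, relative to the sham mean of each pair, for genes other than the members, by genomic distance between the probes. Each point is one array. Pairs 10 to 100 kb apart (1017 pairs) lie at -0.18, -0.076 and -0.22 in adrenalectomized hearts and 0.030, 0.047 and -0.094 in sham hearts.

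The remaining Z-disc members with several probes showed the same kind of split. Ldb3 encodes a PDZ and LIM domain protein, also called cypher or ZASP, that binds alpha-actinin at the Z-disc and has several splice forms. Its probe A_52_P389874, named for transcript variant 1, is shown because it read lower while the probes named for another variant did not. A_52_P389874 lies on chromosome 14 (mm7), on the 3′ side of those probes by mapped coordinates. Whether each probe reads only the variant it is named for was not tested.
Ldb3 A_52_P389874 (chr14:31962823-31962882, minus strand): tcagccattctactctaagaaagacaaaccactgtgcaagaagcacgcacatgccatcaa
This probe had levels of 1.11, 1.44 and 1.69 in adrenalectomized hearts and 2.12, 2.73 and 2.12 in sham hearts. The groups did not overlap, and the difference was -0.91 ± 0.22 (SE, n = 3 each, limma adjusted p = 0.189). The 2 probes named for transcript variant 7, A_51_P265348 and A_51_P265351, read 0.021 ± 0.16 and 0.12 ± 0.17 (SE, limma adjusted p = 0.967 and 0.794). A_51_P265348 had 4.88, 4.51 and 4.55 in adrenalectomized hearts and 4.61, 4.43 and 4.83 in sham hearts, which overlapped fully. The gap between A_52_P389874 and A_51_P265348 was -3.77, -3.07 and -2.86 in adrenalectomized hearts and -2.48, -1.70 and -2.71 in sham hearts, without overlap (exact permutation p = 0.1, adjusted p = 0.200).

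Nebl encodes nebulette, a cardiac relative of nebulin that binds actin at the Z-disc. Probe A_52_P525964, named for the nebulette record (chr2:17412502-17412561, minus strand, mm7), had -1.14, -1.06 and -0.76 in adrenalectomized hearts and -0.068, 0.17 and -0.57 in sham hearts. The groups did not overlap, with a difference of -0.83 ± 0.21 (SE, limma adjusted p = 0.204). Probe A_52_P607060, which the array assigns to Nebl through an unclassified cDNA clone, had 2.82, 2.42 and 2.85 in adrenalectomized hearts and 2.58, 2.52 and 2.64 in sham hearts. Its groups overlapped, with a difference of 0.11 ± 0.14 (SE). The third Nebl probe, A_52_P298112, is named for a clone whose product is described as a homologue of Lasp1. It was well above background on 2 of 3 adrenalectomized arrays and on none of the sham arrays, so it was not tested and no fold is given.

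Myoz2 encodes calsarcin-1, a Z-disc protein that binds calcineurin and alpha-actinin. Probe A_52_P403266, named for a neonatal heart clone (chr3:122862880-122862940, minus strand, mm7), had -3.78, -3.68 and -3.10 in adrenalectomized hearts and -2.41, -2.40 and -2.60 in sham hearts. Groups did not overlap, with a difference of -1.05 ± 0.19 (SE, limma adjusted p = 0.146), the smallest p among the 23 member probes (unadjusted p = 0.000889). The processed intensity behind it was low, at 55.9, 65.4 and 93.6 in adrenalectomized hearts and 126.0, 121.8 and 152.3 in sham hearts. The brighter probe A_51_P248638, named for the Myoz2 reference transcript, had 6.58, 6.39 and 6.08 in adrenalectomized hearts and 6.32 and 6.53 in sham replicates 2 and 3. The spot of sham replicate 1 carried the scanner's outlier flag and was dropped. These groups overlapped, with a difference of -0.075 ± 0.18 (SE, n = 3 and 2).

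**Figure D3:**
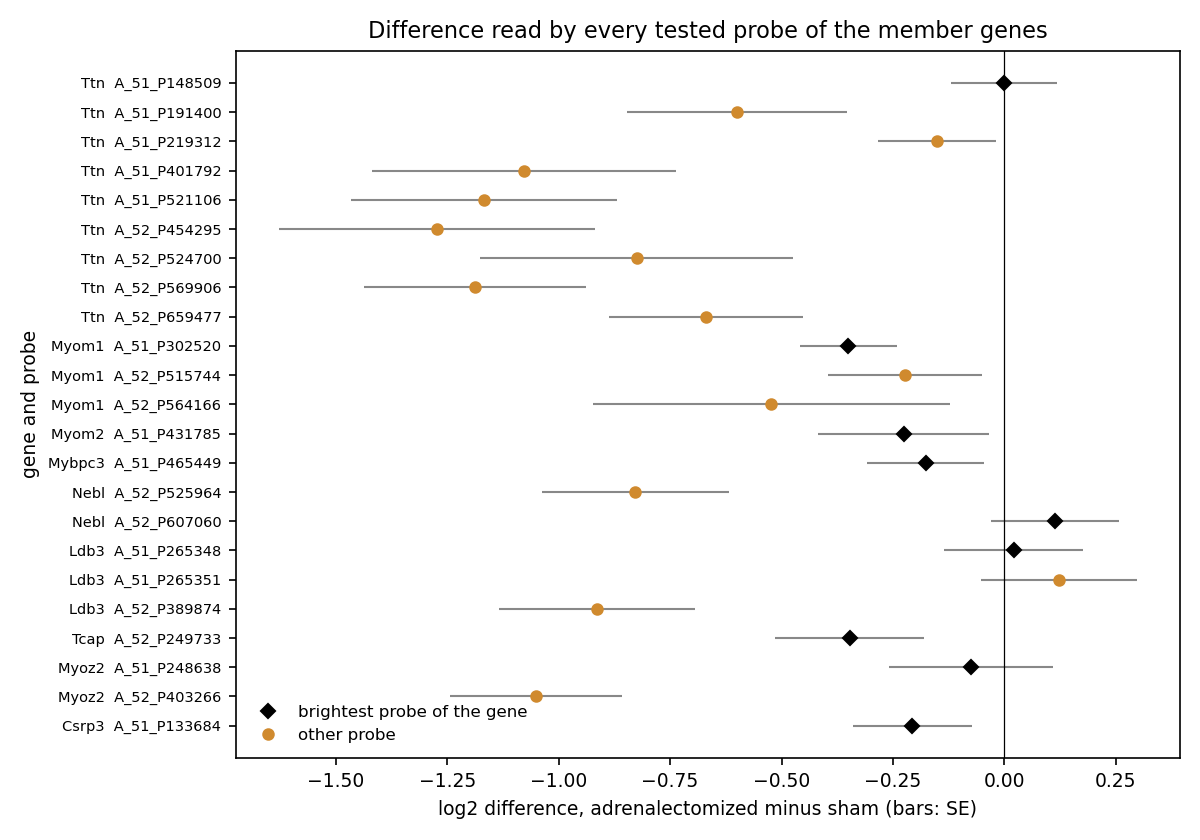
Log2 difference, adrenalectomized minus sham, with its standard error, for each of the 23 tested probes. Diamonds mark the brightest probe of each gene, which represents it in the gene-level fit, and circles the other probes. Of the 23 probes, 20 lie below 0 (12 of 23 under normexp background correction), and the lowest are titin, Myoz2, Ldb3 and Nebl probes.

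The M-band members read lower with smaller differences. Myom1 encodes myomesin 1, which cross-links myosin filaments and binds the end of titin. Its brightest probe, A_51_P302520 (chr17:69405862-69405921, plus strand, mm7), had 5.69, 5.52 and 5.68 in adrenalectomized hearts and 5.97, 6.05 and 5.92 in sham hearts. By the values as read, it was the one member whose groups did not overlap at the gene level, with a difference of -0.35 ± 0.10 (SE, limma adjusted p = 0.291). A saturated spot leaves the overlap of Mybpc3 unsettled. The share of all tested genes that lay lower without overlap was 7.95%, and 10.4% lay higher. The other Myom1 probes, each named for a cDNA clone, read -0.22 ± 0.17 and -0.52 ± 0.40 (SE), and none of the 3 gaps between Myom1 probes was free of overlap. Myom2, which encodes a second myomesin of the adult heart, had 8.47, 8.44 and 8.59 in adrenalectomized hearts and 9.01 and 8.45 in sham replicates 2 and 3, since the spot of sham replicate 1 was flagged. Its difference was -0.23 ± 0.19 (SE, n = 3 and 2, limma adjusted p = 0.665). It rested on 2 sham arrays: without sham replicate 2 it was 0.057 and without sham replicate 3 it was -0.51, each against a single sham array.

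The Z-disc genes with a single probe, Tcap and Csrp3, gave overlapping groups. Tcap encodes telethonin, which caps the end of titin in the Z-disc, and had 9.27, 9.07 and 9.32 in adrenalectomized hearts and 9.57, 9.85 and 9.28 in sham hearts. Sham replicate 3 lay inside the adrenalectomized range, and the difference was -0.35 ± 0.17 (SE, limma adjusted p = 0.450). Csrp3, the muscle LIM protein gene, had 7.59, 7.36 and 7.25 in adrenalectomized hearts and 7.64, 7.71 and 7.47 in sham hearts, a difference of -0.21 ± 0.13 (SE, limma adjusted p = 0.558). Mybpc3 encodes cardiac myosin-binding protein C, which binds myosin and titin in the A-band. It had 9.49, 9.45 and 9.49 in adrenalectomized hearts and 9.79, 9.76 and 9.42 in sham hearts, with the spot of sham replicate 3 saturated. That spot gives only a lower limit and is the one sham value below the adrenalectomized ones, so whether the groups overlap is not settled. The fitted difference, -0.18 ± 0.13 (SE, limma adjusted p = 0.608), takes it at its value and could be further below 0.

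**Figure D4:**
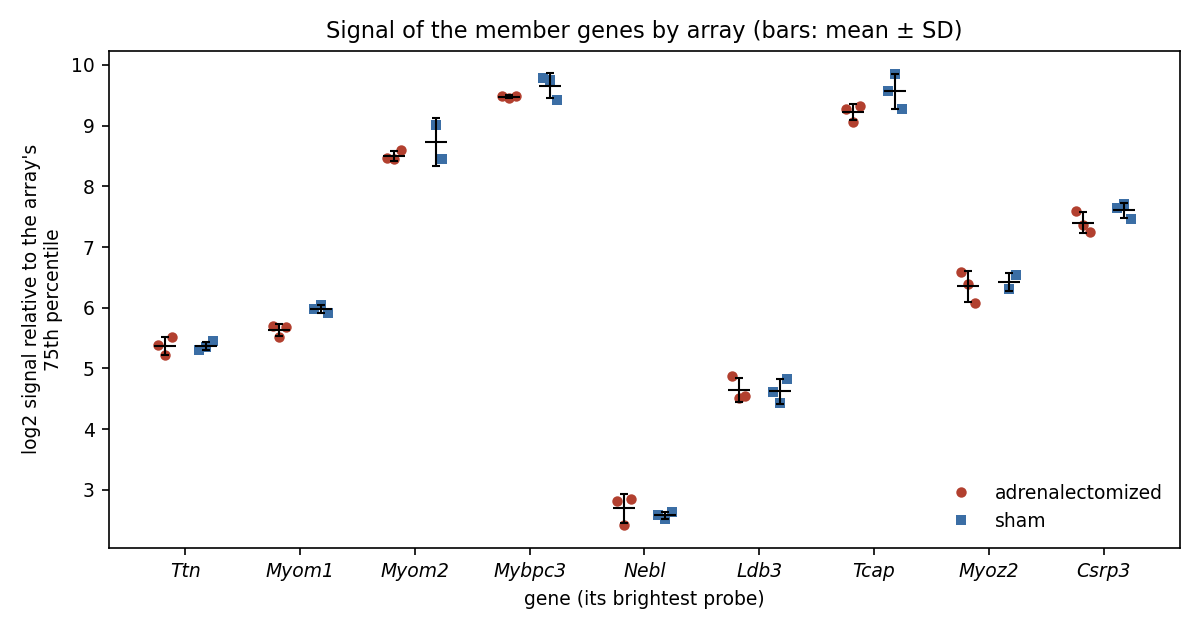
Level of the 9 member genes, each by its brightest probe, on each array (log2 signal relative to the array's 75th percentile). Circles are adrenalectomized and squares sham hearts, with mean ± SD bars, and Myom1 is the one gene whose groups do not overlap as plotted. The spot of sham replicate 3 was saturated for Mybpc3, so whether its groups overlap is not settled. Sham replicate 1 is absent for Myom2 and Myoz2, where the spot was flagged, and levels of different probes are not comparable with each other.

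At the gene level 7 members had a lower and 2 a higher mean, with a median of -0.18 against 0.03 over all genes, but under normexp background correction all 9 had a higher mean, with a median of 0.22. The median was -0.047 with quantile normalization, and -0.014 with slide as a block, where 4 had a higher and 5 a lower value. With median centring 8 were lower, with a median of -0.21. With the mean of a gene's probes in place of the brightest, all 9 were lower, with a median of -0.35. The 8 gaps to titin probe A_51_P148509 kept their direction under normexp, under quantile normalization and without each array in turn. None of the 9 passed an adjusted p of 0.05, and 7 genes of all 16952, or 0.0413%, passed. An unadjusted p under 0.05 was found for 1 of the 9, against 12.3% of all genes. With the mean of a gene's probes it was found for 4 of the 9, against 2202 of all 16952 genes. Of the 23 probes none passed, against 0.00417% of all probes, while 10 had an unadjusted p under 0.05, all with a lower mean in adrenalectomized hearts, against 7.39% of all probes. Of these 10, 6 were titin probes. Without overlap, 7 of the 23 probes lay lower and 0 higher, against 9.39% and 10.2% of all tested probes. Probes of one gene share its RNA and are not replicates of the condition.

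The arrays lay on 2 slides, with all sham arrays and adrenalectomized replicate 1 on the first and the other adrenalectomized arrays on the second. With slide as a block the difference equals that between the sham arrays and a single adrenalectomized array, replicate 1, within the first slide. This array was the lowest adrenalectomized one in 6 of the 7 lower titin probes. The difference within the slide was -1.54 for titin probe A_52_P569906 and -1.93 for A_52_P454295, and 0.011 for A_51_P148509. It was -1.22 for Ldb3 probe A_52_P389874, -0.98 for Nebl probe A_52_P525964 and -1.31 for Myoz2 probe A_52_P403266. Within that slide the brightest probes read -0.29 for Myom1, -0.25 for Myom2, -0.16 for Mybpc3, -0.29 for Tcap and -0.014 for Csrp3, and 0.24 for Nebl, 0.25 for Ldb3 and 0.16 for Myoz2.

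Other genes of the same structures were compared through lists, each gene by its brightest probe, so the list counts and medians leave out dimmer probes. Some dimmer probes read lower than the brightest: -0.79 against -0.017 for Nexn, -0.99 against 0.36 for Capn3 and -0.93 against -0.092 for Ryr2. Others read higher, such as 0.52 against -0.11 for Synpo2 and 0.47 against -0.11 for Flnc. A split between probes of a gene was therefore not particular to the members. Of 23 tested other Z-disc genes, 9 had a higher and 14 a lower mean, with a median of -0.020 (20 of 23 higher under normexp background correction), and none passed. The 3 of smallest p were Pdlim1, a PDZ and LIM protein, at 0.33 ± 0.11 (SE, limma adjusted p = 0.312), the calcineurin regulator Rcan1 at 0.38 ± 0.17 (adjusted p = 0.429) and Synpo2l at -0.36 ± 0.17 (adjusted p = 0.449). Of 16 tested titin and M-band partners, 8 had a higher and 8 a lower mean, with a median of -0.0049 (11 of 16 higher under normexp), and none passed. Trim54, a ubiquitin ligase of the sarcomere, read -0.37 ± 0.13 (SE, limma adjusted p = 0.352), Ankrd1, which binds the titin spring region, -0.36 ± 0.14 (adjusted p = 0.387) and the third myomesin gene, Myom3, -0.25 ± 0.13 (adjusted p = 0.469). At an unadjusted p under 0.05 there was 1 of 23 in the first list and there were 2 of 16 in the second, against the 12.3% of all genes. Of 11 tested filament genes, which check the tissue, all were well above background on all 6 arrays, and 9 had a lower mean with a median of -0.17 (2 of 11 lower under normexp). None passed, and the 2 with an unadjusted p under 0.05 were the myosin heavy chain gene Myh7 at -0.46 ± 0.17 (SE, limma adjusted p = 0.365) and the cardiac troponin I gene Tnni3 at -0.29 ± 0.12 (adjusted p = 0.389).

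The whole hearts also differed in markers of cell types, and in bulk tissue fewer cells of a type and less RNA per cell cannot be told apart. All 8 atrial cardiomyocyte markers were lower without overlap in adrenalectomized hearts, against 7.95% of all genes, and all 8 were also lower under normexp. Their summed signal was 1110 to 1174 times the 75th percentile in adrenalectomized hearts and 1410 to 2179 times in sham hearts. The lists were chosen with earlier results of these data known, so the 8 of 8 is a description and not a test. The summed signal of 9 cardiomyocyte markers was 3516 to 3951 in adrenalectomized hearts and 3834 to 4415 in sham hearts, with 7 of 9 lower (1 of 9 under normexp). All 7 tested adipocyte markers had a higher mean in adrenalectomized hearts (6 of 7 under normexp), with a median of 1.39, or 0.19 with slide as a block. Their sums were 392.9, 712.3 and 616.8 in adrenalectomized hearts and 342.1, 436.7 and 323.7 in sham hearts, so adrenalectomized replicate 1, on the slide of the sham arrays, lay inside the sham range. All 7 fibroblast markers had a lower mean (3 of 7 under normexp), with sums of 175.5 to 200.1 in adrenalectomized hearts and 208.4 to 255.3 in sham hearts. The tested markers of these 4 lists were well above background on all 6 arrays, and the part of these cell types in the members' values was not tested.

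The genes whose deviations over the 6 arrays were nearest to the mean profile of the members were Bzw2, Nub1, Polr3f, Tspan7 and Vcam1, with a mean absolute difference of 0.020 to 0.022 log2 units among 12202 candidates. The nearest to Myom1, the member of smallest p, were Ecrg4, Chd1l, Rex1bd, Bst1 and Pdia3, at 0.024 to 0.041. The probes nearest to titin probe A_52_P569906, a comparison added after the data were seen, belonged to Rnf6, Nfix, Eif5b, Akap13 and Baz1b, at 0.040 to 0.085 among 18160 candidate probes. These are descriptions over 6 arrays of the same 2 groups.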

How the data were processed

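Total RNA of 6 mouse hearts (50 ng each) underwent whole-transcriptome amplification and Cy3 labelling (5 ug of cDNA), according to the labels. The scanner files hold intensity values that the authors deposited from Agilent Feature Extraction (9.5 per the submitters' processing notes, 9.5.3.1 per the file headers), already background-subtracted, with mm7 as the design build. The deposited value table equalled them at all 45018 spots of each array. The 75th percentile intensity was 768 to 839 on adrenalectomized and 644 to 924 on sham arrays, and 60.5 to 66.8% and 57.7 to 60.2% of spots were well above background. The number of arrays limits the precision.

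Here the log2 of each intensity was taken, minus the array's 75th percentile over noncontrol spots. Spots flagged as outliers were dropped and repeat spots averaged. A probe was tested if well above background on all 3 arrays of either group, and the tested probe of highest mean stood for its gene. Symbols were updated through accessions with RefSeq (GRCm38.p6), which named 22951 of 41174 probes. Groups were compared with limma 3.58.1 in R 4.3.3 (Benjamini-Hochberg, 0.05) with all 6 arrays and no covariate, and gaps between probes with exact permutation tests. The fits were tested on simulated data. Figures used matplotlib 3.10.9. The series' design text calls the 3 arrays of a group biological replicates.

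Same-numbered arrays deviated together with r = 0.16, 0.16 and -0.16. With 3 arrays in each group this cannot settle whether the numbers pair the samples, and the main fit used no pairing. All members and their probes are named, from each of the 2 partner lists the 3 genes of smallest p, since none passed, and 5 genes by likeness. The members, lists and tests were chosen with earlier results of these data known. Beside the 2 partner lists and the filament list, 10 marker lists were fixed, and the median difference of those not given in the report was -0.22 for skeletal muscle, -0.15 for endothelial, -0.044 for smooth muscle and pericyte, -0.066 for macrophage, 0.53 for red cell and 0.42 for lymphocyte markers. The alternatives are in the closing section. Xirp1, Rbm20 and Rbm24 matched no probe name, and Myoz3 and Mybpc1 were not tested.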

Additional observations from a re-analysis of the deposited data

How the results depend on the processing

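No member gene passed the threshold under any of the 21 alternatives (15 settings and 6 fits without 1 array). Normexp background correction, which moved the median of all genes to -0.051, called 1220 genes higher and 4734 lower, against 5 and 2 in the report. Under it the brightest probes turned positive for Ttn (0.35), Myom1 (0.015), Myom2 (0.079), Mybpc3 (0.22), Tcap (0.060), Myoz2 (0.23) and Csrp3 (0.15), as did Ttn probe A_51_P219312 (0.21), and the Myom1 gap of A_52_P515744 to A_51_P302520 turned to -0.60. It also took 7 member probes past the threshold: Ttn A_51_P521106 (-0.88), A_52_P569906 (-0.93) and A_52_P659477 (-0.87), Myom1 A_52_P515744 (-0.59), Nebl A_52_P525964 (-0.72), Myoz2 A_52_P403266 (-1.18) and Ldb3 A_51_P265351 (0.47). Of all 23993 tested probes, normexp took 1597 past the threshold as higher and 8106 as lower, so passing it was common. The cause was not tested. Ldb3 changed sign with quantile normalization (-0.00051), median centring (-0.017) and the mean of its probes (-0.26), the last also for Nebl (-0.36). With slide as a fixed block Ttn read 0.011 and Myoz2 0.16, and Myoz2 0.0058 with array weights.

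Genes called higher and lower over all genes were 2 and 3 with quantile normalization, 3 and 5 with median centring, 0 and 2 with the percentile over detected probes, with the mean of probes and with flagged spots kept, and 0 and 1 with detection on all arrays, with no filter and with slide as a block. They were 6 and 7 with a variance trend and 38 and 37 with array weights. With a replicate block 0 genes were called higher and 1 lower, and no member. Without 1 array the counts ran from 0 to 39 higher and 1 to 6 lower, and 39 came without adrenalectomized replicate 1. The brightest probes that changed sign without 1 array ranged from -0.072 to 0.076 for Ttn, -0.51 to 0.057 for Myom2 (both ends against a single sham array), -0.095 to 0.13 for Ldb3 and -0.19 to 0.061 for Myoz2. The Myom1 gaps to A_51_P302520 ranged from -0.61 to 0.24 for A_52_P564166 and from -0.031 to 0.27 for A_52_P515744. None of the 8 Ttn gaps to A_51_P148509 changed sign under the alternatives run on gaps. That of A_52_P524700 was -0.50 without adrenalectomized replicate 1, against -0.82 with all arrays. Normexp also moved the Myom1 gap of A_52_P564166 to -0.64, against -0.17. Csrp3 read -0.014 with slide as a fixed block, against -0.21.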
